A study of Mus musculus with 24 samples.

Results

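Aminoacyl-tRNA synthetases, the enzymes that load each amino acid onto its tRNA, were followed in BV-2 microglial cells exposed to LPS, to the cannabinoids CBD or THC, or to a cannabinoid together with LPS. The genes were chosen by name, with earlier results of these data known. They comprise 20 genes of the cytosolic enzymes and 16 genes, with symbols ending in 2, of the mitochondrial enzymes. The array carried a probe for 29 of these 36 genes, 15 cytosolic and 14 mitochondrial, through 40 of its 24611 probes, which name 15161 different genes. Dars, Eprs, Lars, Mars1, Qars, Aars2 and Cars2 had no probe matched by name and were not analysed here.

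Translation in the cytosol and translation inside mitochondria run on separate sets of tRNAs, and most amino acids therefore have a pair of nuclear synthetase genes, one for each compartment. Gars and Kars are exceptions, because each encodes both the cytosolic and the mitochondrial enzyme. An uncharged tRNA activates the kinase GCN2, which phosphorylates the initiation factor eIF2α, slows general translation and favours synthesis of the transcription factor ATF4. In mammalian cells ATF4 is known to activate genes of amino acid uptake, amino acid synthesis and several cytosolic synthetases, as one arm of the integrated stress response.

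BV-2 cells are 1 immortalised mouse line derived from microglia, which are the macrophages resident in brain tissue. Total RNA of 24 samples was measured on Illumina MouseRef-8 arrays in 6 groups: untreated controls (Cntr, n = 6), LPS (n = 6), THC (n = 4), THC+LPS (n = 4), CBD (n = 2) and CBD+LPS (n = 2). LPS, a bacterial cell wall component, was given at 100 ng/ml for 4 h, the cannabinoids at 10 µM for 6 h alone, or 2 h before LPS in the combined treatments. CBD and THC are isomers that differ in a ring: it is closed through an oxygen in THC and open, leaving a phenol, in CBD. All values are log2 signals of the brightest probe of a gene unless another probe is named, and log2 differences are differences between group means with the standard error of the fit. A gene was called higher or lower where the limma test, adjusted over all 24611 probes, gave an adjusted p under 0.05. The labels number the samples as replicates without naming separate cultures. The p-values therefore cover only the variation among these arrays, part of which may be technical.

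Between 40.6% and 44.8% of probes were detected on each array (detection p under 0.05). The LPS labels were checked with Il1b, which ranged from 6.97 to 7.53 in Cntr and from 13.86 to 14.98 in LPS arrays, and with Tnf, which ranged from 9.38 to 10.46 in Cntr and from 14.51 to 14.85 in LPS arrays. All 10 measured microglia and macrophage markers were detected on at least 1 array, as were 13248 of all 24611 probes. By the same rule, 2 of 6 markers for astrocytes, 2 of 5 for neurons, 1 of 5 for oligodendrocytes and 0 of 6 for fibroblasts were detected. None of these markers of other brain and stromal cells was called in LPS, CBD or CBD+LPS cells against Cntr or in CBD+LPS cells against LPS. Of the 10 microglia and macrophage markers, 3 were called higher with LPS (5.43% of all probes) and 0 were called with CBD. In CBD+LPS cells 1 was higher and 2 were lower against Cntr (5.79% and 6.83% of all probes), and 1 was lower against LPS (1.22%). In such bulk samples, fewer cells and less RNA per cell cannot be told apart.

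Among the synthetases, 24 of the 29 genes were detected on every array. Hars, Hars2 and Yars2 were detected on no array, Iars on 20 and Yars on 19 of 24 arrays. In control cells the mean log2 signal ranged from 6.42 ± 0.15 (SD, n = 6) for Yars2 to 14.28 ± 0.16 for Gars. Signals of different probes were not compared as levels, since probes differ in their binding.

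Promoter sequences are shown because ATF4 acts through a composite element bound with a C/EBP partner, here written as TGATGNAA and read on both strands (TTNCATCA on the other). RefSeq windows of 300 bases, from 250 bases before to 50 after the annotated start (GRCm38.p6), were found for 13 of the 20 cytosolic and 14 of the 16 mitochondrial genes. The element was present in 5 of the 13 cytosolic genes and in 0 of the 14 mitochondrial genes, against 1219 of all 27025 genes with a window (4.51%). Aars held it at 2 places, 112 bases before the start and just after it, Gars at 30 and Tars at 15 bases before the start, and Iars and Yars just after the start. A match is a description of the letters in this window only. Each stretch is printed 5′ to 3′ along the gene, with 20 bases to either side and the element in capitals. They lie at chr8:111033710-111033878 (+, Aars), chr6:55037951-55037998 (+, Gars), chr15:11399646-11399693 (−, Tars), chr13:49682117-49682164 (+, Iars) and chr4:129189886-129189933 (+, Yars).
Aars: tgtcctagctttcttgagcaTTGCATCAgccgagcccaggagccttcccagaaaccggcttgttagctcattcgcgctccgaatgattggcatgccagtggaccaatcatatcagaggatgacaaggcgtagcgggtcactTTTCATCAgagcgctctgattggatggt
Gars: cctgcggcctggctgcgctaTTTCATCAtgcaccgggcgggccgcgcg
Tars: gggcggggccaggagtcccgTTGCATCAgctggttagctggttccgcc
Iars: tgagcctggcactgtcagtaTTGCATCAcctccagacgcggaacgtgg
Yars: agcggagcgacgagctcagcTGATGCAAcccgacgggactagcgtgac

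Of these 5 genes, Aars (by its brighter probe only), Gars and Tars were called higher in CBD+LPS against LPS cells, as were 2.12% of all probes. Iars and Yars, whose signals lay near the detection limit, were called in no comparison. Sars, Farsa, Farsb and Kars had a window without the element; among them Sars and Farsb were called higher as well. No window was found for Cars, Hars, Lars, Nars, Rars, Vars, Wars, Hars2 and Pars2, of which Cars, Nars, Rars and Wars were also called higher. Whether calls go with the element was not tested.

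With CBD alone, calls were more frequent among the cytosolic than among the mitochondrial synthetases. Of the 15 cytosolic genes, 5 were called higher and 0 lower in CBD against Cntr cells, where 2.46% of all probes were called, 1.56% higher and 0.902% lower. Of the probes detected on every array, 3.19% were called higher and 2.28% lower. The 5 genes were Sars, Cars, Aars, Nars and Wars, with folds from 1.65 to 2.16. Of the 14 mitochondrial genes, Fars2 was called higher and Mars2 lower. The median log2 difference was 0.40 for the cytosolic genes, 0.21 for the mitochondrial genes and -0.01 for all probes. The difference was above 0 for 11 of 15 cytosolic and 11 of 14 mitochondrial genes. An unadjusted p under 0.05 was found for 9 cytosolic and 5 mitochondrial genes.

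In LPS-treated cells, pretreatment with CBD was accompanied by higher signals of the same 5 cytosolic genes and of Tars, Rars, Gars and Farsb. In CBD+LPS against LPS cells, 9 of 15 cytosolic genes were called higher and 0 lower, where 2.12% of all probes were called higher and 1.22% lower. Among probes detected on every array these shares were 4.32% and 2.88%. Tars2 was the 1 mitochondrial gene of 14 called, and it was higher. The medians were 0.41 for the cytosolic and 0.17 for the mitochondrial genes, with -0.01 for all probes, and under median scaling, which shifts each array to 1 median in place of quantile normalization, they were 0.38 and 0.27. Against Cntr, CBD+LPS cells had 8 cytosolic genes higher and 0 lower, and 4 mitochondrial genes higher and 1 lower. There 5.79% of all probes were called higher and 6.83% lower, and of those detected on every array 11.3% higher and 15.5% lower. All comparisons with Cntr share the 6 Cntr arrays and are not independent of each other.

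Each CBD group has 2 arrays, and these calls depended on one of them. Without CBD replicate 1, 0 of the 15 cytosolic genes were called in CBD against Cntr cells, and the 5 differences were then between 0.49 (Wars) and 0.98 (Cars). Without CBD+LPS replicate 2, 0 were called against LPS and 4 against Cntr, and the 9 differences from LPS were then between 0.35 (Gars) and 0.89 (Cars). In those fits the remaining array is assumed to vary like the other groups. The main fit also gives each probe a common spread over all 6 groups, so its standard errors and p-values assume equal spread. The SD of Sars was 0.27 with CBD and 0.66 with CBD+LPS, against 0.11 to 0.23 in the groups without CBD. For Fars2 it was 0.52 and 0.53, against 0.04 to 0.14. For Rars it was smaller with CBD and CBD+LPS, 0.04 and 0.03, against 0.05 to 0.28.

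**Figure D1:**
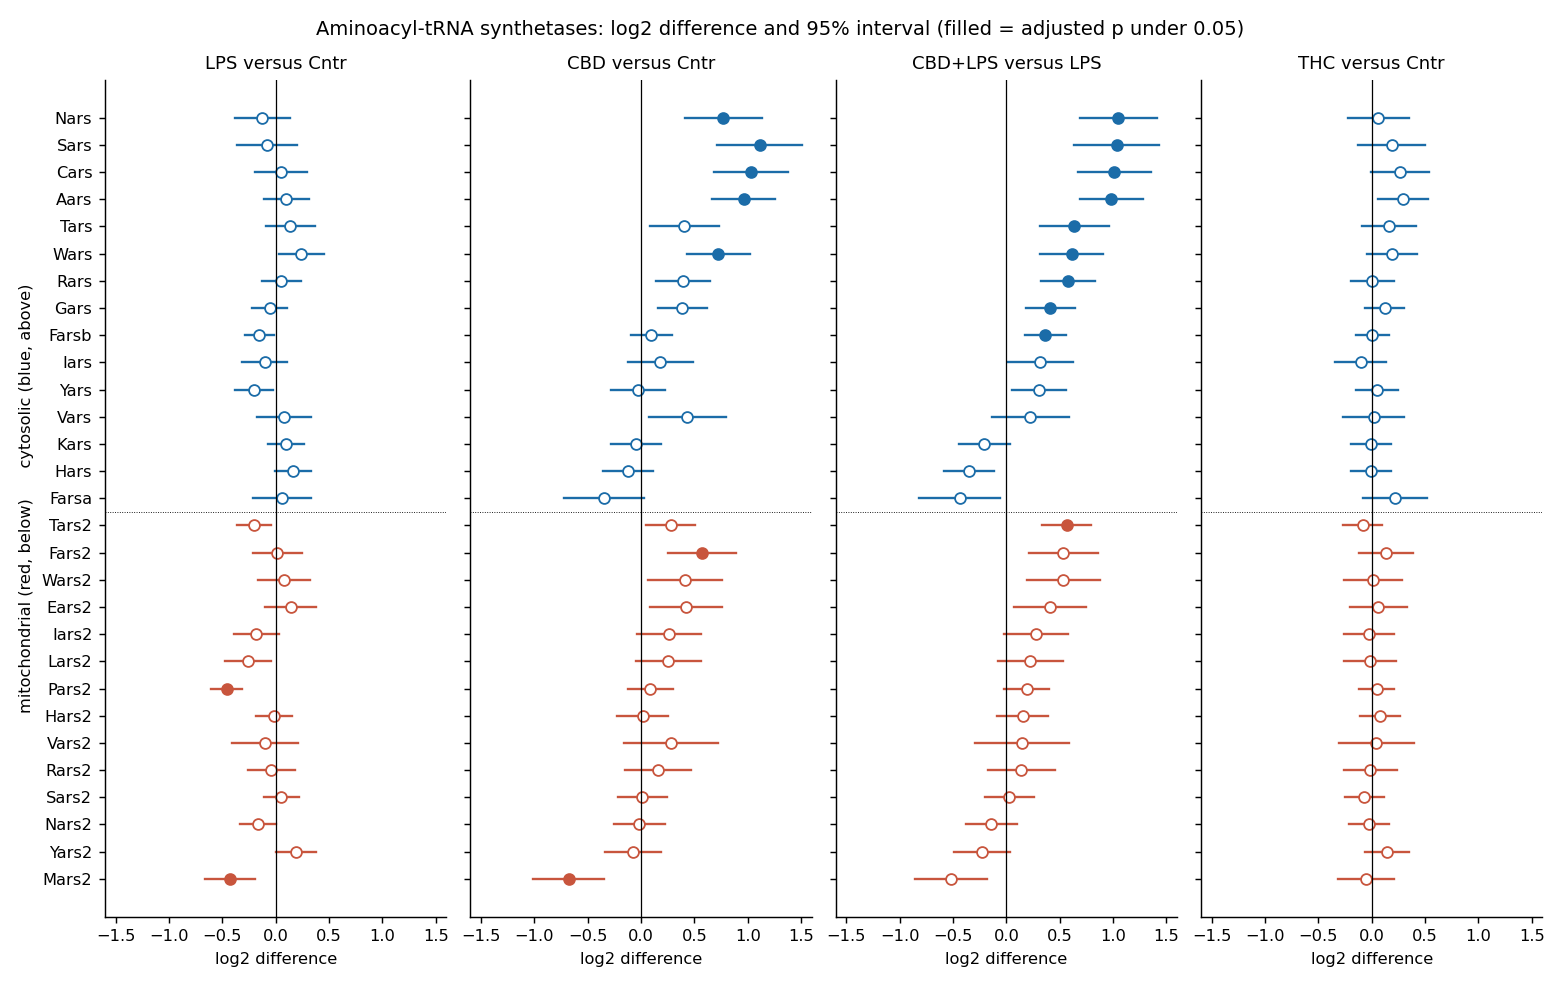
Log2 difference (x axis) of the 15 cytosolic (blue, above) and 14 mitochondrial (red, below) synthetase genes in 4 comparisons, with lines for the 95% interval and filled points for an adjusted p under 0.05. In both CBD comparisons the filled points lie mostly among the cytosolic genes, between 0.36 and 1.11, while in LPS against Cntr cells the filled points are Pars2 and Mars2, at -0.46 and -0.43.

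Sars, which charges tRNA with serine and also the selenocysteine tRNA, ranged in Cntr from 11.59 to 12.22 (median 12.03) and in LPS cells from 11.57 to 12.13 (median 11.96). It was 13.27 and 12.88 on the CBD arrays and 12.45 and 13.39 on the CBD+LPS arrays. It was 12.06, 12.26, 12.06 and 12.22 in THC and 12.22, 11.87, 12.26 and 11.83 in THC+LPS cells. All 4 arrays with CBD lay above all 20 others. The log2 difference was 1.11 ± 0.19 for CBD against Cntr (2.16-fold, adjusted p = 0.00156) and 1.03 ± 0.19 for CBD+LPS against LPS (2.05-fold, adjusted p = 0.00274). A second probe of Sars gave 1.16 and 1.03, both called.

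Aars, the alanine enzyme, ranged from 13.20 to 13.52 (median 13.42) in Cntr and from 13.27 to 13.69 (median 13.48) in LPS cells. Values with CBD were 14.46 and 14.20, and with CBD+LPS 14.20 and 14.71. The THC arrays gave 13.81, 13.70, 13.41 and 13.74, and the THC+LPS arrays 14.00, 13.47, 13.95 and 13.62. The arrays with CBD again lay above every other array, and 6 of the 8 arrays with THC lay above the Cntr range. Aars rose by 0.96 ± 0.14 in CBD against Cntr cells (1.95-fold, adjusted p = 0.000311) and by 0.98 ± 0.14 in CBD+LPS against LPS cells (1.98-fold, adjusted p = 0.000176).

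The other probe of Aars, which was dimmer but detected on all arrays, moved the opposite way. It ranged from 9.64 to 9.94 in Cntr and from 9.40 to 9.80 in LPS cells, and read 9.04 and 9.59 with CBD and 9.59 and 8.59 with CBD+LPS. It was lower by 0.69 in CBD+LPS than in Cntr cells (adjusted p = 0.0125), while its differences of -0.47 for CBD against Cntr (adjusted p = 0.245) and -0.45 for CBD+LPS against LPS (adjusted p = 0.217) were not called. With the mean of both probes, Aars lost all its calls, at 0.25 for CBD against Cntr (adjusted p = 0.432). The direction given for Aars therefore holds for its brighter probe only.

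Cars, the cysteine enzyme, lay between 10.56 and 10.90 (median 10.78) in Cntr and between 10.54 and 10.96 (median 10.82) in LPS cells. It reached 11.82 and 11.73 with CBD, and 11.69 and 11.93 with CBD+LPS. THC arrays read 10.76, 11.29, 10.78 and 11.20, and THC+LPS arrays 11.31, 10.77, 11.41 and 10.96. The CBD arrays formed a narrow group above all others. The differences were 1.03 ± 0.17 against Cntr (2.04-fold, adjusted p = 0.000713) and 1.01 ± 0.17 for CBD+LPS against LPS (2.02-fold, adjusted p = 0.000773).

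Nars, the asparagine enzyme, spanned 12.71 to 13.33 (median 12.90) in Cntr and 12.57 to 13.05 (median 12.80) in LPS cells. Its CBD values were 13.74 and 13.67 and its CBD+LPS values 13.61 and 14.11. In THC cells it read 12.92, 13.35, 12.65 and 13.08, and in THC+LPS cells 13.32, 12.97, 13.32 and 12.84. Groups with and without CBD did not overlap. The rise was 0.77 ± 0.18 with CBD (1.71-fold, adjusted p = 0.0161) and 1.05 ± 0.18 with CBD+LPS against LPS (2.07-fold, adjusted p = 0.000943). Under median scaling the first was not called (0.74, adjusted p = 0.0661).

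Wars, the tryptophan enzyme, which in human cells is inducible by interferon gamma, ranged from 11.00 to 11.48 (median 11.21) in Cntr and from 11.34 to 11.60 (median 11.43) in LPS cells. It read 12.17 and 11.70 with CBD, and 11.90 and 12.23 with CBD+LPS. It read 11.29, 11.51, 11.35 and 11.44 with THC, and 11.71, 11.27, 11.61 and 11.66 with THC+LPS. CBD and CBD+LPS arrays were above the Cntr and LPS arrays, but the lower CBD value, 11.70, was close to the highest THC+LPS value, 11.71. The difference was 0.72 ± 0.14 for CBD against Cntr (1.65-fold, adjusted p = 0.00522) and 0.61 ± 0.14 for CBD+LPS against LPS (1.53-fold, adjusted p = 0.0163). A second, detected probe of Wars gave 0.24 (adjusted p = 0.641) and 0.22 (adjusted p = 0.583), and with the mean of both probes the first difference was 0.48 (adjusted p = 0.0683) and the second 0.41 (adjusted p = 0.111). The second was also not called with the compared groups fitted alone (adjusted p = 0.0616) or with arrays weighted by quality (adjusted p = 0.0681).

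Tars, the threonine enzyme, ranged from 9.80 to 10.37 (median 10.08) in Cntr and from 10.02 to 10.50 (median 10.17) in LPS cells. It was 10.58 and 10.37 with CBD, and 10.64 and 11.04 with CBD+LPS. It was 10.21, 10.41, 10.02 and 10.30 with THC, and 10.30, 10.37, 10.35 and 10.09 with THC+LPS. Both CBD+LPS arrays stood above all others, whereas the lower CBD array reached only the highest Cntr value. Tars differed by 0.64 ± 0.16 between CBD+LPS and LPS cells (1.56-fold, adjusted p = 0.021), and by 0.41 ± 0.16 between CBD and Cntr cells (adjusted p = 0.214). A second probe of Tars gave 0.41 for CBD+LPS against LPS (adjusted p = 0.0845), and the brighter probe was not called with the compared groups alone (adjusted p = 0.102) or array weights (adjusted p = 0.0639).

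Rars, the arginine enzyme and a member of the multisynthetase complex, ranged from 12.78 to 12.94 (median 12.85) in Cntr and from 12.74 to 13.08 (median 12.90) in LPS cells. It read 13.27 and 13.22 with CBD, and 13.51 and 13.46 with CBD+LPS. It read 12.87, 13.01, 12.61 and 12.95 with THC, and 13.31, 12.81, 13.23 and 12.77 with THC+LPS. The CBD+LPS arrays stood above all others, and THC+LPS arrays 1 and 3 lay near the CBD arrays. The difference was 0.58 ± 0.12 for CBD+LPS against LPS (1.49-fold, adjusted p = 0.00777) and 0.40 ± 0.12 for CBD against Cntr (adjusted p = 0.0952). The first was not called under median scaling (0.54, adjusted p = 0.0988) or with the replicate number as a block (0.54, adjusted p = 0.0542).

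Gars, the glycine enzyme of both compartments, had the brightest probe. It ranged from 14.07 to 14.46 (median 14.28) in Cntr and from 14.12 to 14.35 (median 14.23) in LPS cells, and was 14.70 and 14.64 with CBD and 14.58 and 14.69 with CBD+LPS. With THC it was 14.39, 14.49, 14.17 and 14.56, and with THC+LPS 14.49, 14.12, 14.46 and 14.12. CBD arrays were the highest, by a small margin. Gars was higher by 0.41 ± 0.11 in CBD+LPS than in LPS cells (1.33-fold, adjusted p = 0.0391), and the call was lost without either CBD+LPS array (0.47 and 0.35), without LPS replicate 1, 2, 4 or 5 (adjusted p = 0.0536 to 0.0659) and under median scaling (0.17, adjusted p = 0.686), with the replicate block (adjusted p = 0.0947) and with array weights (adjusted p = 0.172).

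Farsb, the beta subunit of the phenylalanine enzyme, ranged from 13.59 to 13.93 (median 13.65) in Cntr and from 13.40 to 13.65 (median 13.57) in LPS cells. It was 13.78 and 13.83 with CBD, and 13.95 and 13.89 with CBD+LPS. With THC it was 13.82, 13.76, 13.57 and 13.72, and with THC+LPS 13.71, 13.54, 13.62 and 13.52. CBD+LPS arrays lay above the LPS arrays, whereas CBD arrays lay within the Cntr range. The difference from LPS was 0.36 ± 0.09 (1.29-fold, adjusted p = 0.028), and it was not called under median scaling (0.28, adjusted p = 0.38), with the compared groups alone, the replicate block or array weights (adjusted p = 0.0601 to 0.095), without either CBD+LPS array (0.33 and 0.40), or without LPS replicate 2 or 5 (adjusted p = 0.0524 and 0.0509). Farsa, the alpha subunit of the same enzyme, differed by -0.44 ± 0.18 in this comparison (adjusted p = 0.229) and by -0.35 ± 0.18 for CBD against Cntr (adjusted p = 0.456).

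**Figure D2:**
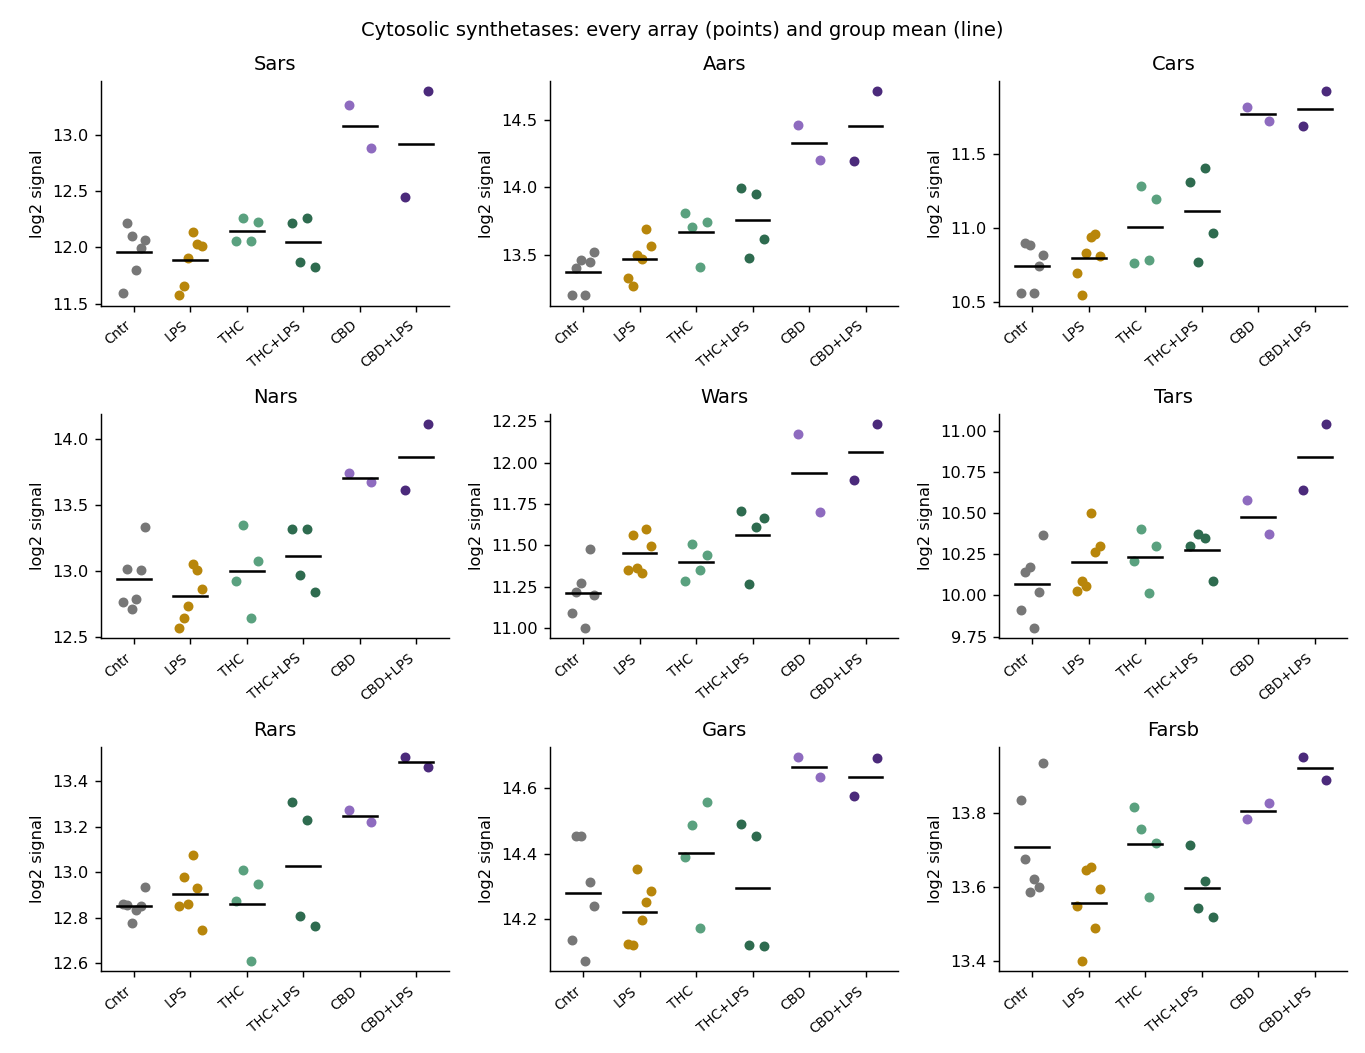
Log2 signal (y axis) of the 9 called cytosolic synthetase genes on every array (points) by treatment (x axis), with lines for group means. For Sars, Aars, Cars and Nars all 4 arrays with CBD, the 2 rightmost groups, lie above the other 20 arrays, while the gap between the 2 arrays of a CBD group is widest for Sars in CBD+LPS cells, 12.45 and 13.39.

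The 6 remaining cytosolic genes were called in no comparison. Kars, the lysine enzyme of both compartments, differed by -0.05 ± 0.12 for CBD against Cntr and by -0.21 ± 0.12 for CBD+LPS against LPS. Vars, the valine enzyme, differed by 0.43 ± 0.17 and 0.23 ± 0.17 in the same comparisons (adjusted p = 0.248 and 0.596). For Hars, Iars and Yars, all near or under the detection limit, the differences with CBD were -0.12, 0.18 and -0.03, respectively, and in CBD+LPS against LPS cells -0.35, 0.32 and 0.30. Of the multisynthetase enzymes, Iars, Kars and Rars had a probe, and Rars alone was called. By structural class, 3 of 6 class I enzymes (Cars, Rars, Wars) and 6 of 9 class II enzymes (Aars, Farsb, Gars, Nars, Sars, Tars) were called higher in CBD+LPS against LPS cells. There 2.12% of all probes and 4.32% of those detected on every array were called higher. The uncalled genes include Iars and Yars of class I and Hars of class II, near or under the detection limit. No difference between the classes was tested.

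In LPS-treated cells Pars2 and Mars2 were lower, a share of the mitochondrial genes close to that of all detected probes. In LPS against Cntr cells 2 of 14 mitochondrial genes were called lower and 0 higher, where 7.56% of all probes were called lower and 5.43% higher. Both are among the 12 mitochondrial genes detected on every array, and of all probes so detected 15.6% were called lower. In the same comparison 0 of 15 cytosolic genes were called in either direction (3 had an unadjusted p under 0.05). The median log2 difference was -0.07 for the mitochondrial genes and -0.01 for all probes, or -0.13 and -0.06 over those detected on every array. Under median scaling the mitochondrial median was -0.23 and that of all probes detected on every array -0.21, while the cytosolic median turned from 0.05 to -0.07. In THC+LPS against Cntr cells, 3 of 14 mitochondrial genes were lower, again Mars2 and Pars2 and in addition Nars2, where 6.53% of all probes and 13.8% of those detected on every array were called lower.

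Pars2, the proline enzyme of mitochondria, ranged from 8.54 to 8.74 (median 8.65) in Cntr and from 8.09 to 8.28 (median 8.18) in LPS cells. It was 8.39, 8.15, 8.31 and 8.11 with THC+LPS, and 8.40 and 8.35 with CBD+LPS. It was 8.63, 8.74, 8.74 and 8.64 with THC, and 8.82 and 8.64 with CBD. Every array with LPS was below every array without it. Pars2 fell by 0.46 ± 0.07 with LPS (27.3% lower, adjusted p = 2.76e-05) and by 0.40 ± 0.08 with THC+LPS (24.2% lower, adjusted p = 0.000807), and its difference of -0.27 ± 0.10 for CBD+LPS against Cntr was not called (adjusted p = 0.0856).

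Mars2, the mitochondrial methionine enzyme, ranged from 10.45 to 10.76 (median 10.54) in Cntr and from 9.89 to 10.36 (median 10.23) in LPS cells. It was 9.63 and 10.17 with CBD, and 9.92 and 9.34 with CBD+LPS. It was 10.39, 10.47, 10.65 and 10.57 with THC, and 9.91, 9.91, 10.12 and 10.02 with THC+LPS. LPS, CBD and both combinations lay below the Cntr range, whereas THC overlapped it. The fall was 0.43 ± 0.11 with LPS (25.6% lower, adjusted p = 0.0108), 0.58 ± 0.13 with THC+LPS (33.3% lower, adjusted p = 0.00216), 0.68 ± 0.16 with CBD (37.5% lower, adjusted p = 0.0223) and 0.94 ± 0.16 with CBD+LPS (48.1% lower, adjusted p = 0.000161). Without CBD replicate 1 the CBD difference was -0.41, and without CBD+LPS replicate 2 the CBD+LPS difference was -0.66 (adjusted p = 0.0528), and neither was then called. The CBD call was also lost under median scaling (-0.70, adjusted p = 0.0788), with the compared groups alone (adjusted p = 0.0688) and with the replicate block (-0.55, adjusted p = 0.136). The LPS falls of Pars2 and Mars2 kept their calls with each of the 24 arrays left out and under every alternative setting tried.

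Tars2, the mitochondrial threonine enzyme, ranged from 10.58 to 10.71 (median 10.68) in Cntr and from 10.30 to 10.54 (median 10.47) in LPS cells. It was 10.94 and 10.92 with CBD, and 10.89 and 11.15 with CBD+LPS. It was 10.54, 10.58, 10.50 and 10.68 with THC, and 10.62, 10.47, 10.66 and 10.39 with THC+LPS. The 4 arrays with CBD were the highest. Tars2 was higher by 0.56 ± 0.11 in CBD+LPS than in LPS cells (1.48-fold, adjusted p = 0.00425) and by 0.36 ± 0.11 than in Cntr cells (adjusted p = 0.0318), and neither was called without CBD+LPS replicate 2 (0.44 and 0.23). The second call was also lost without Cntr replicate 1 (0.35, adjusted p = 0.0525), under median scaling (0.27, adjusted p = 0.366), with the replicate block (adjusted p = 0.0572) and with array weights (adjusted p = 0.0974). With the compared groups alone neither was called (adjusted p = 0.0855 and 0.169).

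Wars2, the mitochondrial tryptophan enzyme, ranged from 8.66 to 9.10 (median 8.95) in Cntr and from 8.59 to 9.31 (median 9.01) in LPS cells. It was 9.54 and 9.08 with CBD, and 9.47 and 9.55 with CBD+LPS. It was 8.96, 8.77, 8.97 and 8.96 with THC, and 9.14, 8.66, 9.01 and 9.13 with THC+LPS. The lower CBD array lay within the Cntr range. Wars2 was called for CBD+LPS against Cntr (0.61 ± 0.17, 1.53-fold, adjusted p = 0.0138) and not for CBD+LPS against LPS (0.53 ± 0.17, adjusted p = 0.081), and without CBD+LPS replicate 1 or 2 the first was 0.65 and 0.57, not called. It was also not called under median scaling (adjusted p = 0.0595) or with array weights (adjusted p = 0.0512). A second probe of Wars2, detected on every array, gave 0.28 for CBD+LPS against Cntr (adjusted p = 0.178) and 0.13 against LPS (adjusted p = 0.692).

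Fars2, the mitochondrial phenylalanine enzyme, ranged from 11.79 to 12.21 (median 12.08) in Cntr and from 11.93 to 12.15 (median 12.08) in LPS cells. It was 12.99 and 12.25 with CBD, and 12.23 and 12.97 with CBD+LPS. It was 12.21, 12.12, 12.17 and 12.21 with THC, and 12.11, 12.17, 12.14 and 12.01 with THC+LPS. A single array of each CBD group was high, and the other was just above the Cntr range. Fars2 was called at 0.57 ± 0.16 for CBD against Cntr (adjusted p = 0.0484) and at 0.55 ± 0.16 for CBD+LPS against Cntr (adjusted p = 0.0174). The first call was kept only when CBD replicate 2, Cntr replicate 2 or an array of CBD+LPS was left out, and without the high array the differences were 0.20 and 0.18. Both calls were lost under median scaling, with the compared groups alone and with the replicate block (adjusted p = 0.0696 to 0.213), and the first also with neqc (adjusted p = 0.0594).

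Ears2, which charges mitochondrial tRNA with glutamate, ranged from 9.90 to 10.22 (median 10.16) in Cntr and from 9.94 to 10.43 (median 10.36) in LPS cells. It was 10.64 and 10.40 with CBD, and 10.61 and 10.69 with CBD+LPS. It was 10.07, 10.28, 9.88 and 10.40 with THC, and 10.30, 9.93, 10.42 and 10.04 with THC+LPS. Its CBD+LPS arrays lay above the Cntr and LPS arrays. Ears2 was called for CBD+LPS against Cntr (0.55 ± 0.16, 1.46-fold, adjusted p = 0.0251), a call lost without either CBD+LPS array (0.58 and 0.51), and not against LPS (0.41 ± 0.16, adjusted p = 0.202). The call was also lost under median scaling (0.44, adjusted p = 0.208) and with array weights (adjusted p = 0.0941).

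**Figure D3:**
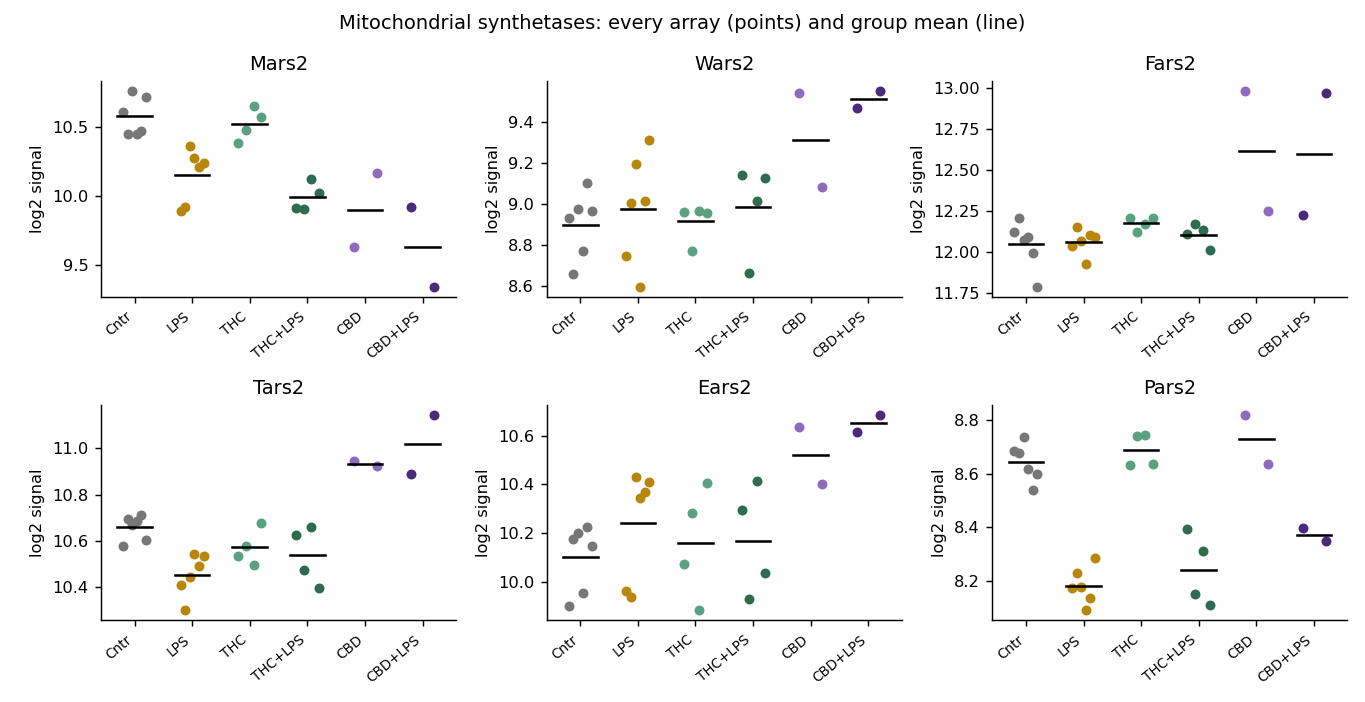
Log2 signal (y axis) of 6 mitochondrial synthetase genes on every array (points) by treatment (x axis), with lines for group means. Pars2 lies between 8.09 and 8.40 on the arrays with LPS and between 8.54 and 8.82 on the others, and Mars2 is lowest on CBD+LPS replicate 2 at 9.34.

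Nars2, the mitochondrial asparagine enzyme, was called in 1 comparison, lower by 0.32 ± 0.09 in THC+LPS than in Cntr cells (adjusted p = 0.0193), and this call was lost without Cntr replicate 2 or THC+LPS replicate 3 or 4 (adjusted p = 0.0501 to 0.072) and with the replicate block (adjusted p = 0.0851). Hars2, Iars2, Lars2, Rars2, Sars2, Vars2 and Yars2 were called in no comparison. Their differences for CBD against Cntr lay between -0.08 (Yars2) and 0.28 (Vars2), and those for LPS against Cntr between -0.26 (Lars2) and 0.19 (Yars2).

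For 10 amino acids the array held the enzymes of both compartments, which allowed 11 comparisons within an amino acid because Farsa and Farsb share the partner Fars2. In CBD+LPS against LPS cells the log2 difference of the cytosolic gene exceeded that of its mitochondrial partner in 8 of 11. The median gap was 0.079. LPS against Cntr cells likewise gave 8 of 11 and a median gap of 0.079, and CBD against Cntr cells 7 of 11 and 0.13. Hars, Hars2 and Yars2 were detected on no array, so the gaps for histidine and tyrosine carry little information. In CBD+LPS against LPS cells the gap was wide for asparagine, where Nars was at 1.05 and Nars2 at -0.14, and for serine, where Sars was at 1.03 and Sars2 at 0.03. It was small for threonine, with Tars at 0.64 and Tars2 at 0.56, and for tryptophan, with Wars at 0.61 and Wars2 at 0.53. For phenylalanine the order was turned, with Farsa at -0.44, Farsb at 0.36 and Fars2 at 0.53. These pairs are given as values and no test was made between partners.

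**Figure D4:**
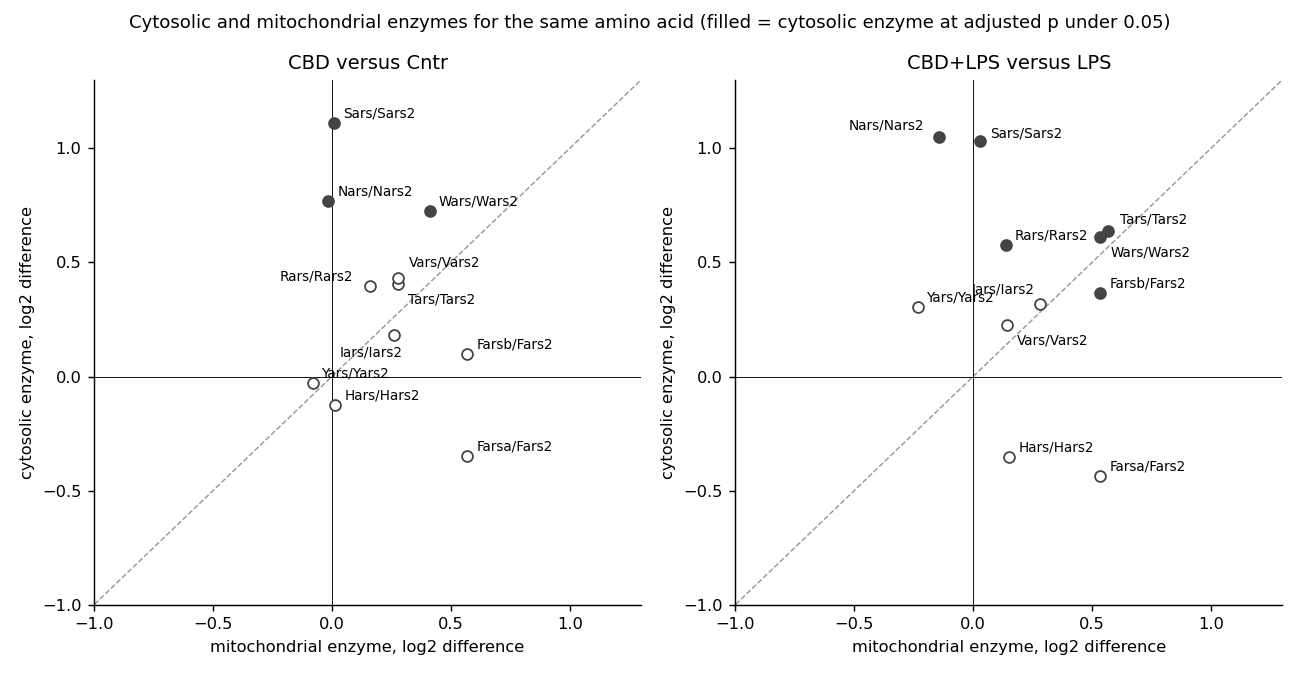
Log2 difference of the cytosolic gene (y axis) against that of the mitochondrial gene for the same amino acid (x axis), for CBD against Cntr (left) and CBD+LPS against LPS (right), with equality as the broken line. Serine and asparagine lie far above the line with the mitochondrial gene between -0.14 and 0.03, threonine and tryptophan lie close to it at right, and Farsa lies far below it.

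THC alone moved no synthetase past the threshold. In THC against Cntr cells 0 of 15 cytosolic and 0 of 14 mitochondrial genes were called, where 0.00406% of all probes were called, and 1 cytosolic gene and 0 mitochondrial genes had an unadjusted p under 0.05. The largest difference was that of Aars, 0.30 ± 0.11. In THC+LPS against LPS cells 0 of 29 were called, where 0% of all probes were called, and 3 cytosolic genes and 1 mitochondrial gene had an unadjusted p under 0.05. Against Cntr, THC+LPS cells had 2 cytosolic genes called higher, where 4.99% of all probes and 9.89% of those detected on every array were. They were Aars (0.39 ± 0.11, adjusted p = 0.0232) and Wars (0.35 ± 0.11, adjusted p = 0.043). Neither gene was called without Cntr replicate 1 or 4 or THC+LPS replicate 1 or 3, and for both the arrays overlapped with Cntr. Both calls were also lost under median scaling (0.28, adjusted p = 0.203, and 0.18, adjusted p = 0.457) and with the mean of a gene's probes. The dimmer probe of Aars was at -0.43 in this comparison (adjusted p = 0.0584). THC+LPS replicates 1 and 3 were above replicates 2 and 4 for 10 of 15 cytosolic and 7 of 14 mitochondrial genes. This split was picked out after the values were seen, and no share over all probes was computed. It was not confined to the synthetases. Over all probes detected on every array, deviations of replicates 1 and 3 correlated with those of LPS replicate 2 at -0.636 and -0.701. For replicates 2 and 4 the correlations were 0.522 and 0.743.

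The compounds were compared directly at the same dose and times, alone and with LPS. In CBD against THC cells, 3 of 15 cytosolic genes were called higher, where 0.630% of all probes were called, 0.455% of all probes higher, and 0 of 14 mitochondrial genes were called (5 had an unadjusted p under 0.05). Among probes detected on every array, 0.75% were called higher. Sars was higher by 0.92 ± 0.21 (adjusted p = 0.0316), Cars by 0.77 ± 0.18 (adjusted p = 0.0397) and Aars by 0.66 ± 0.15 (adjusted p = 0.0397). Nars, at 0.71 with a 95% interval from 0.32 to 1.09, and Wars, at 0.54 with an interval from 0.22 to 0.85, missed the threshold (adjusted p = 0.0789 and 0.116).

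With LPS, CBD+LPS against THC+LPS cells had 2 of 15 cytosolic genes called higher, Sars (0.87 ± 0.21, adjusted p = 0.0414) and Aars (0.69 ± 0.15, adjusted p = 0.0275), where 0.662% of all probes were called, 0.479% of all probes higher. Of the probes detected on every array, 0.895% were called higher. Cars, at 0.69 with an interval from 0.33 to 1.06, and Nars, at 0.75 with an interval from 0.37 to 1.14, were just outside (adjusted p = 0.06 and 0.0543). For Kars the interval of the difference ran from -0.29 to 0.21 without and from -0.38 to 0.13 with LPS, and for Sars2 from -0.16 to 0.32 and from -0.21 to 0.28. No mitochondrial gene was called, with Tars2 at 0.48 (interval 0.24 to 0.72, adjusted p = 0.053) nearest. The direct comparisons rested on few arrays: without CBD replicate 1 or THC replicate 3 all CBD against THC calls were lost, and without CBD+LPS replicate 2 or THC+LPS replicate 2 or 4 both CBD+LPS against THC+LPS calls were. Median scaling, the replicate block and a fit of the compared groups alone likewise left 0 cytosolic genes called in either comparison, with adjusted p from 0.0504 to 0.294 for the genes named as called.

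Whether CBD changed the response to LPS was tested as an interaction. For 0 of 15 cytosolic and 0 of 14 mitochondrial genes was it called, where 0% of all probes were, and 0 genes of either compartment had an unadjusted p under 0.05. The interaction ranged from -0.23 (Hars) to 0.33 (Yars, 95% interval -0.025 to 0.69) among the cytosolic genes and from -0.15 to 0.29 (Tars2) among the mitochondrial genes. With THC, 0 of 29 were called and 1 mitochondrial gene had an unadjusted p under 0.05. The neqc background correction also called none of the 29 genes in either interaction.

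Within each CBD group the arrays differed, and not only for the synthetases. Over all 8934 probes detected on every array, deviations from the group means correlated at 0.745 between CBD replicate 1 and CBD+LPS replicate 2. No share over all probes was computed for the counts that follow. CBD replicate 1 was above replicate 2 for 10 of 15 cytosolic and 11 of 14 mitochondrial genes, and CBD+LPS replicate 2 was above replicate 1 for 10 of 15 and 9 of 14. Among the 9 called cytosolic genes, which were chosen on these arrays, the counts were 8 and 7. The same 2 arrays had the higher Fars2, by 0.73 and 0.74, and the lower Mars2, at 9.63 and 9.34, and Farsa, at 8.89 and 8.95. They also had the higher Ddit3, a stress-induced transcription factor, at 13.26 against 11.10 in CBD and 12.72 against 10.42 in CBD+LPS cells. The part of this difference between arrays in the results was not tested beyond leaving out each array.

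Genes of the ATF4 pathway moved in the same samples, from a list of 30 of which 27 had a probe. In CBD against Cntr cells 15 of 27 were called higher and 0 lower (1.56% of all probes higher), with a median difference of 0.82, and in CBD+LPS against LPS cells 12 of 27 higher and 0 lower (2.12% of all probes higher), with a median of 0.60. With CBD, Ddit3 rose by 3.59 (adjusted p = 9.41e-06), Chac1, which degrades glutathione, by 3.34 (adjusted p = 0.00242), Trib3, a pseudokinase that restrains ATF4, by at least 3.02 because it was not detected in Cntr cells (adjusted p = 6.3e-07), and Nupr1, a stress-induced chromatin protein, by 2.98 (adjusted p = 2.58e-06). Atf4 itself was 12.61 to 12.89 with CBD against 10.92 to 11.73 in Cntr cells. LPS raised 6 and lowered 2 of these 27 genes, where 5.43% of all probes were called higher and 7.56% lower, Slc7a11 (3.00), Nupr1 (2.09), Ppp1r15a (2.01) and Atf3 (1.58) most, while it left the cytosolic synthetases uncalled. THC called 0 of the 27, of which 9 had an unadjusted p under 0.05.

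Other parts of the translation apparatus are given beside the synthetases as counts, with no test between lists. The 3 scaffold proteins of the multisynthetase complex (Aimp1, Aimp2, Eef1e1) were called in none of the CBD comparisons. In CBD+LPS against LPS cells all 3 had an unadjusted p under 0.05, with Aimp1 at 0.28, Aimp2 at -0.42 and Eef1e1 at -0.40. Of 20 cytosolic translation factors with a probe, 0 were called higher and 2 lower with CBD, Eif4e, the cap-binding protein (-0.62), and Eif1ax (-0.61), where 0.902% of all probes were called lower. In CBD+LPS against Cntr cells 2 were higher, Eif3c (0.66) and Eif5 (0.58), and 2 lower, Eif2b1 (-0.57) and Eif1ax (-0.52), where 5.79% of all probes were higher and 6.83% lower. In CBD+LPS against LPS cells 0 were called, and 8 had an unadjusted p under 0.05. Of 16 mitochondrial translation factors and tRNA amidation proteins, 0 were called with CBD (1 at an unadjusted p under 0.05), and 1 was lower with LPS, the release factor Mtrf1l (-0.36), a share no higher than the 7.56% of all probes called lower.

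**Figure D5:**
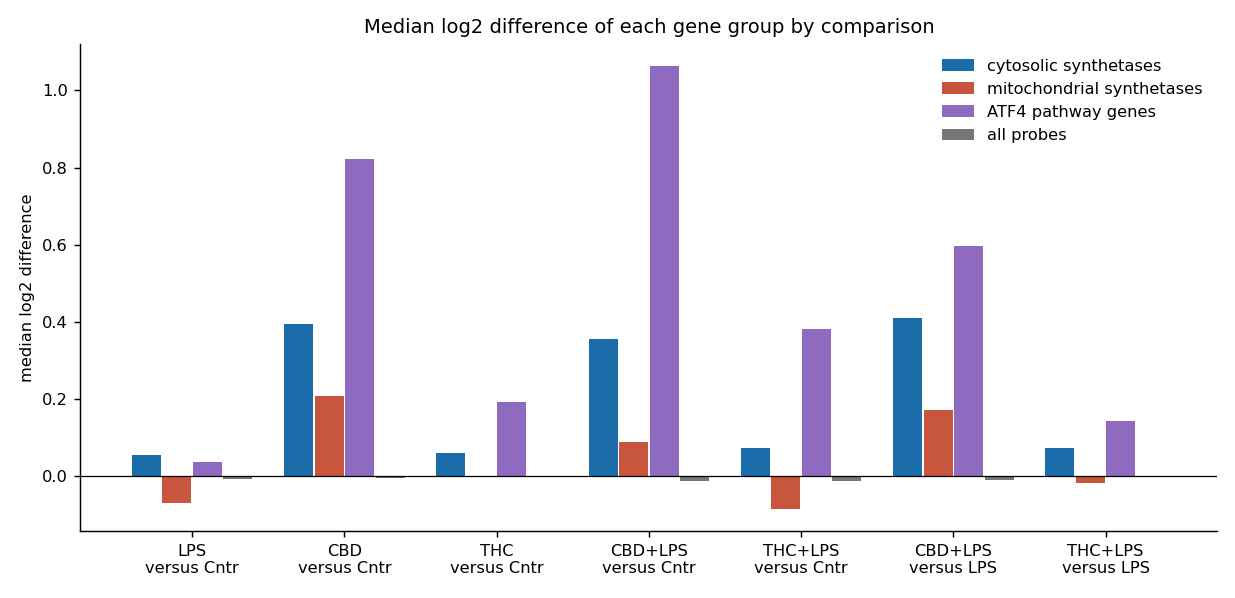
Median log2 difference (y axis) of the cytosolic synthetases, the mitochondrial synthetases, the ATF4 pathway genes and all probes in 7 comparisons (x axis). The cytosolic bar is at 0.40, 0.36 and 0.41 in the 3 comparisons with CBD and at 0.07 or lower in the others. Its sign turns under median scaling for LPS and THC+LPS against Cntr. The mitochondrial bar is below 0 in those 2 and, at -0.02, in THC+LPS against LPS.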

How the data were processed

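The authors deposited, for each of 24 arrays, the bead signal intensity of 24611 probes without normalization, the detection p-value of each probe against negative control beads, and processed log2 values. Setting them against the signals showed that the deposited log2 values are log2 signals after quantile normalization, with no background subtraction, to within 0.0267. The software that made them is not given in the sources used here. These log2 values were analysed here as deposited. Of the probes, 19852 had a gene symbol in the platform annotation and 4759 had none there. Groups came from the sample labels. The methods of the study and its results differ on the number of replicates, and the labels were followed.

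Group means were fitted over all 24 arrays together with limma 3.58.1 (R 4.3.3, statmod 1.5.0; lmFit, eBayes with trend, no filter), and two-sided p-values were adjusted by Benjamini-Hochberg over all 24611 probes in each of 9 two-group comparisons and 2 interactions. Every p is from limma unless named otherwise. All members are accounted for. Values on every array are given for up to 10 cytosolic and up to 6 mitochondrial genes called against Cntr or LPS, ordered by largest difference, and for the other lists up to 4 genes. Atf4, and the genes named for class or array patterns, were chosen after their values were seen. The members and lists were chosen with earlier results of these data known. The script was tested on simulated data with known changes.

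Alternatives were neqc with offset 16 (whose lowest value is 7.54 and median 7.70, a high floor that understates folds of dim genes), median scaling, leaving out probes not detected on at least 2 arrays, the compared groups alone, a replicate block, array weights, the mean of a gene's probes, an unadjusted p of 0.005, and each array left out. The crossed replicate block was chosen after seeing the data. Precision is limited by how few arrays a group has, above all for CBD. Pairing was checked from the labels' replicate numbers: over 44 same-numbered pairs of samples from different groups the correlation of deviations from the group means ran from -0.745 to 0.759 (median -0.01), with 16 over 0.1. Over 188 differently numbered pairs it ran from -0.701 to 0.745 (median 0.002), with 78 over 0.1. The numbers were therefore not taken to pair the samples. Some arrays of different groups nevertheless shared deviations, which the labels do not name and the main fit does not include. Their source was not tested.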

Additional observations from a re-analysis of the deposited data

Results flagged for a closer look

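Each gene was examined for an array far from the others of its group, by Dixon's criterion, in the 4 groups of 4 or 6 arrays. This gave 116 groups, of which 3 had such an array, and chance alone marks about 1 group in 20. Yars was 7.55 on LPS replicate 3, where the nearest LPS array was 7.27. Wars2 was 8.77 on THC replicate 2, below the nearest THC array at 8.96. Hars2, which was detected on no array, was 6.29 on THC replicate 4 and 6.65 on the nearest.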

How the results depend on the processing

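With 1 array left out, 900 of the calls examined gene by gene kept their side of the threshold, 108 were lost and 0 turned direction. Each call was counted in every such fit, also where the array left out was outside the compared groups. These counts therefore do not measure how firm a call was, and the calls with CBD depended on single arrays, as given above. Under the other settings 297 were kept, 80 were lost and 1 turned: Aars in THC+LPS against Cntr cells was -0.022 with the mean of its probes.

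Over the 24 fits that each left out 1 array, the counts of cytosolic genes called higher ran from 0 to 6 for CBD against Cntr, 4 to 8 for CBD+LPS against Cntr, 0 to 9 for CBD+LPS against LPS, 0 to 3 for CBD against THC, 0 to 6 for CBD+LPS against THC+LPS and 0 to 3 for THC+LPS against Cntr. Cytosolic genes called lower ran from 0 to 1 for CBD against THC. Mitochondrial genes called higher ran from 0 to 1 for CBD against Cntr and CBD against THC, 0 to 4 for CBD+LPS against Cntr, and 0 to 2 for CBD+LPS against LPS and against THC+LPS. Mitochondrial genes called lower ran from 2 to 3 for LPS, 2 to 4 for THC+LPS against Cntr, 0 to 2 for CBD+LPS against LPS, and 0 to 1 for CBD and CBD+LPS against Cntr and for CBD against THC.

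Other settings moved these counts as follows, where only the larger moves are listed, and the cause was not tested. Among moves not listed, some of the 9 cytosolic genes called higher in CBD+LPS against LPS cells lost their calls. Gars, Rars and Farsb lost them under median scaling and with the replicate block, and Gars and Farsb with the crossed block. Tars, Wars and Farsb lost them with the compared groups alone, and Aars and Wars with the mean of a gene's probes. Median scaling gave 5 mitochondrial genes lower with LPS, 0 higher and 0 lower with CBD, 0 higher in CBD+LPS against Cntr and 2 higher against LPS, and 0 cytosolic genes higher in THC+LPS against Cntr and in both comparisons of CBD with THC. With neqc, mitochondrial genes were 0 higher with CBD, 2 lower in CBD+LPS against Cntr and 2 higher against LPS, and 1 cytosolic gene was higher in THC+LPS against Cntr and 1 in CBD+LPS against THC+LPS. With the compared groups alone, mitochondrial genes were 0 higher and 0 lower with CBD, 2 higher in CBD+LPS against Cntr and 0 against LPS, and cytosolic genes 1 higher in THC+LPS against Cntr and 0 in both comparisons of CBD with THC. Array weights gave 1 mitochondrial gene higher in CBD+LPS against Cntr, and 5 cytosolic genes higher in CBD+LPS against LPS and 0 against THC+LPS. With the mean of a gene's probes, 3 cytosolic genes were higher with CBD, 0 in THC+LPS against Cntr, and 1 in each comparison of CBD with THC. With dim probes left out, mitochondrial genes were 3 lower in CBD+LPS against Cntr, 3 higher and 1 lower against LPS and 1 higher against THC+LPS, where 4 cytosolic genes were higher. At an unadjusted p of 0.005, CBD against Cntr had 7 cytosolic genes higher, CBD+LPS against LPS had 1 cytosolic gene lower and 3 mitochondrial genes higher and 1 lower, CBD against THC had 5 cytosolic genes higher and 1 mitochondrial gene lower, and CBD+LPS against THC+LPS had 8 cytosolic genes and 1 mitochondrial gene higher. The cytosolic gene lower in CBD+LPS against LPS was Hars, which was detected on no array.

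With the replicate block, mitochondrial genes were 0 higher and 0 lower with CBD, and 2 higher in CBD+LPS against Cntr and 2 against LPS, and 0 cytosolic genes were called in either comparison of CBD with THC. With the numbers of the CBD+LPS arrays crossed, a block chosen after seeing the data, the counts were 0 and 0 mitochondrial genes with CBD, 2 higher in CBD+LPS against LPS, and 1 cytosolic gene in each comparison of CBD with THC.

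Median scaling moved the median of the probes detected on all arrays from -0.06 to -0.21 for LPS, from -0.07 to -0.21 for THC+LPS and from -0.06 to -0.13 for CBD+LPS, each against Cntr. The share of higher among all called probes went from 41.8% to 25.5% for LPS, from 43.3% to 28.0% for THC+LPS against Cntr, from 63.5% to 83.0% for CBD+LPS against LPS, and from 72.4% to 89.0% (81% with neqc) for CBD+LPS against THC+LPS. Hars, Hars2 and Yars2 lay within background on every array, so that their differences carry little information.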
